A study of Mus musculus with 9 samples.

Results

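Cytochrome P450 genes (Cyp) and flavin-containing monooxygenase genes (Fmo) were followed in ear skin of C57BL/6 mice. Members were taken by name, as Cyp or Fmo followed by a digit. Of the 25124 genes in the table, 112 matched, 2 of them (Cyp51 and Cyp4f39) were left out, and 110 remained, 103 P450 genes and 7 Fmo genes. They comprise 104 protein-coding genes, 5 pseudogenes and 1 noncoding RNA, and fall into 40 subfamilies. All 9 mouse ear samples had been swabbed with Staphylococcus epidermidis strain LM087 every other day and were taken at day 8. In 4 of them the mice also received the checkpoint antibody anti-CTLA-4, whose dose and route the labels do not give, and 5 had the bacterium alone. The comparison asks what the antibody adds in skin that carries the bacterium; skin without the bacterium, or with the antibody alone, was not analysed here. The labels do not say that the replicates are separate animals, and p-values then speak only of sample-to-sample spread, part of which may be technical.

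P450s are haem enzymes that insert an oxygen atom into fatty acids, sterols, retinoids, steroids and foreign chemicals. Most, but not the mitochondrial ones, take electrons from P450 reductase. FMOs oxidise nitrogen and sulphur atoms of drugs and dietary compounds with a flavin. In skin, P450s of the CYP26 family clear retinoic acid, CYP1 enzymes respond to the aryl hydrocarbon receptor, and the CYP2 and CYP4 families include epoxygenases and omega-hydroxylases of fatty acids and eicosanoids.

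Of the 110 members, 95 had a value above 0 TPM (a length-scaled transcript abundance) in at least 1 library and 51 in all 9, while 15 were listed at 0 in every library. The 15 include Cyp7a1, the rate-limiting enzyme of bile acid synthesis in liver, and Cyp3a11, a major P450 of mouse liver. Cyp3a41a and Cyp3a41b are among them too. Of the 75-base windows of their transcripts, 95.3% and 90.9% occur in other genes, so their 0 is uncertain. A test needed at least 1 TPM in at least 4 libraries, which 41 members passed (38 P450 and 3 Fmo genes), from 30 subfamilies; 54 others were above 0 but not tested. A member that passed only through the group where it is high had to differ, so the counts below describe tested members only. Levels were concentrated in few genes: the 2 highest members held 31.3% and the 10 highest 62.3% of the summed TPM, while 72 members averaged under 1 TPM and 56 under 0.1 TPM.

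TPM in this table is per base of the whole gene span, introns included, because the listed length equals end minus start for 24932 genes. Values within a gene are comparable between libraries, but levels of different genes depend on how long their introns are. Whole reads could be recovered from the values, and summed over the listed genes they came to 10213769 to 13868676 per library. Reads in overlapping gene spans enter this sum more than once, so it is not the number of reads in a library. Of the sum, 6.35% to 8.66% fell on the ribosomal RNA entries Rn45s and Mir6236. A value of 1 TPM stands for 3.04 reads in the short gene Cyp8b1 and for 268 reads in Cyp7b1, so equal TPM values rest on unequal depth.

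**Figure D1:**
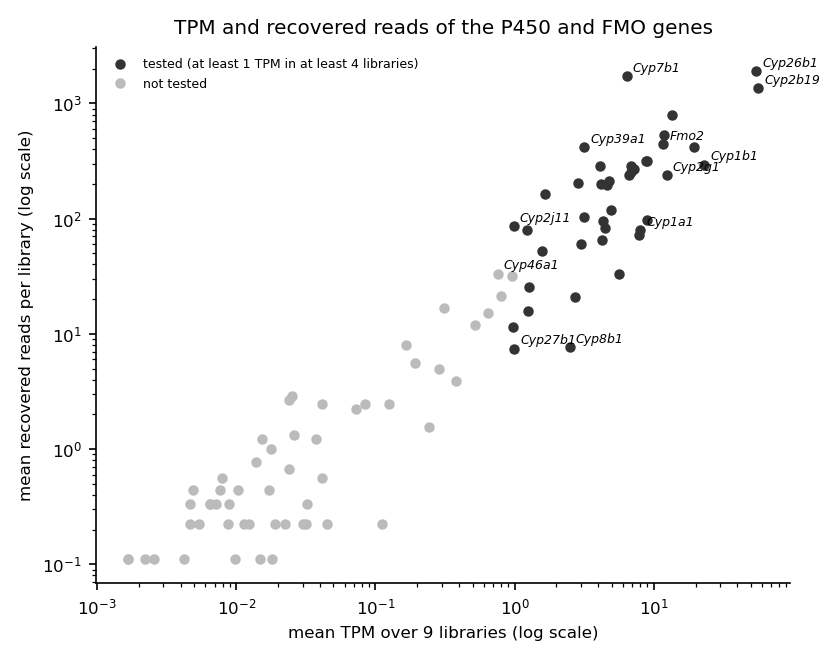
Mean TPM over 9 libraries (x axis, log scale) against mean recovered reads per library (y axis, log scale) for the members above 0 TPM, 1 point per gene; dark points passed the filter of at least 1 TPM in at least 4 libraries. Cyp7b1 lies far above other genes of like TPM and Cyp8b1 and Cyp27b1 lie at few reads.

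The threshold was passed by 6 members with an adjusted p under 0.05 in limma on log2(TPM + 1) with Benjamini-Hochberg adjustment over all 15704 genes tested. Higher with anti-CTLA-4 were Cyp4f18, Cyp7b1 and Cyp4f16, and lower were Cyp2g1, Fmo2 and Cyp3a13; the other 35 tested members were not called. Of all genes tested, 11.6% were called, 7.16% higher and 4.48% lower, so 6 of 41 members is a share near the background. An unadjusted p under 0.05 was reached by 17 members. The log2 fold change was positive in 19 and negative in 22 members, with a median of -0.04, beside -0.01 over all genes tested. The groups did not overlap for 6 members, 2 higher and 4 lower, while 14.4% of all genes tested did not overlap. Under quantile normalization the members split into 3 higher and 5 lower, and all genes into 1314 higher and 1429 lower, against 1124 higher and 704 lower without it; a common median gave the same members' split, with 1302 higher and 1313 lower genes. Rescaling after removal of the 50 most abundant genes gave 3 higher and 4 lower members and 1205 higher and 1306 lower genes. All 3 scalings called Cyp2j9 lower too, and the first pair of them also Cyp26b1.

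**Figure D2:**
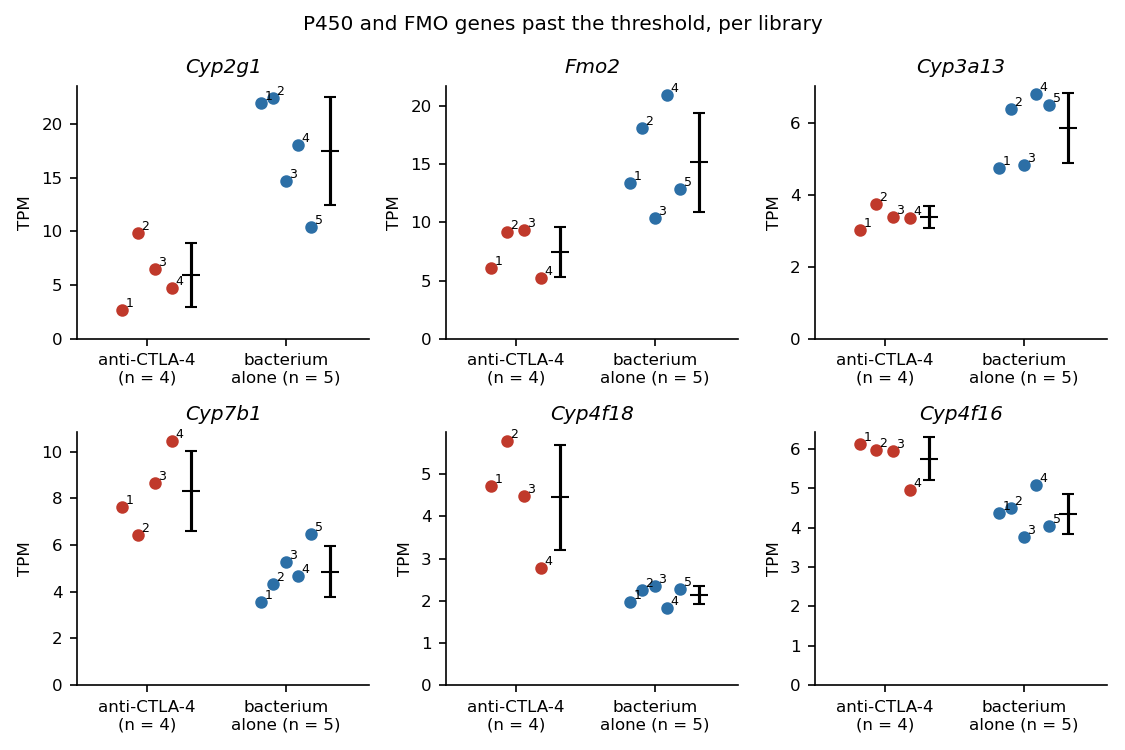
TPM (y axis, from 0) of the 6 called members in each library, with 4 anti-CTLA-4 libraries at left and 5 libraries with the bacterium alone at right; small numbers are replicate numbers and bars give mean ± SD. In Cyp2g1, Fmo2, Cyp3a13 and Cyp4f18 the groups do not overlap, and in Cyp7b1 and Cyp4f16 1 antibody library lies below the highest library of the bacterium alone.

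Promoter sequence is shown for the called members that the RefSeq table (GRCm38.p6) holds, so that their starts can be compared: 250 bases before the transcription start, 5′ to 3′ on the gene's strand, with motif matches in capitals (a match on the other strand shows as its reverse complement).
Cyp4f18, chr8:72009627-72009876, minus strand: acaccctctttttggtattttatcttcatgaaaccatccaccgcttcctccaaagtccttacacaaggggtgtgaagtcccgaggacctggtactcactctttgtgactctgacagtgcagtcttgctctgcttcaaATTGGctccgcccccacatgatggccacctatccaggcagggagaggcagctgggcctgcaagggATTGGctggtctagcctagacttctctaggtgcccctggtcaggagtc
Cyp4f16, chr17:32536307-32536556, plus strand: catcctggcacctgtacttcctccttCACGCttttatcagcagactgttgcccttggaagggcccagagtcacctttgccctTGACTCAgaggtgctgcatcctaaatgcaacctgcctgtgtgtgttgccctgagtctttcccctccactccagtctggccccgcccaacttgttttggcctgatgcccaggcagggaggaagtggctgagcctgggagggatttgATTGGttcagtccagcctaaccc
Cyp3a13, chr5:137921620-137921869, minus strand: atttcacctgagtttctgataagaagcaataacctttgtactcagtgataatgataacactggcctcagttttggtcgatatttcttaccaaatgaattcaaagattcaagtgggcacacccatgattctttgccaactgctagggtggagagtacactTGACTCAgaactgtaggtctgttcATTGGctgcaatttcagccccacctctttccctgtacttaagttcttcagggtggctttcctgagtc
Fmo2, chr1:162898759-162899008, minus strand: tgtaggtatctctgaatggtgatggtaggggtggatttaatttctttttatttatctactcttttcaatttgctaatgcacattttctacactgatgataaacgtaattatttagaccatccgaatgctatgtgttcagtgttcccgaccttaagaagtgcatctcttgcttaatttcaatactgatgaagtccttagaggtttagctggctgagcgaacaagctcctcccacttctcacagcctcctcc
Searched on both strands were TATAAA (the TATA-box letters), the CCAAT box, GCGTG (aryl hydrocarbon receptor core), TGANTCA (AP-1), TTCNNNGAA (STAT) and AGGTCA (nuclear receptor half-site). Positions count back from the start, with the base before it as -1. Cyp4f18 held CCAAT at -113 to -109 and at -48 to -44. Cyp4f16 held CCAAT at -23 to -19, GCGTG at -224 to -220 and TGANTCA at -168 to -162. Cyp3a13 held CCAAT at -67 to -63 and TGANTCA at -91 to -85, and no searched motif lay in the Fmo2 window. The AP-1 letters thus occurred once in a gene that was higher and once in one that was lower. Over 32851 windows of the same length, 33.8% held the CCAAT box, 28.2% the aryl hydrocarbon receptor core, 6.75% the AP-1 motif, 12.4% the TATA-box letters, 7.02% the STAT motif and 14.0% the half-site. Of the 33 tested members with a window, 12 held the CCAAT box, 9 the receptor core, 3 the AP-1 motif, 6 the TATA-box letters, 4 the STAT motif and 5 the half-site. A match is a string of letters, not a binding site.

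Among fatty acid and eicosanoid hydroxylases of the CYP4 family, 2 of 7 tested members were higher and none was lower, while 7.16% of all genes tested were higher. All 7 had a positive log2 fold change, with a median of 0.13, beside -0.01 over all genes tested. Those of Cyp4f13 (0.05 ± 0.09) and Cyp4b1 (0.08 ± 0.10) were smaller than their SE. Over the fits leaving out 1 library, that of Cyp4f13 fell as low as -0.021. Cyp4f18 (chr8:71988482-72009626, minus strand, mm10), a leukotriene hydroxylase of mouse neutrophils, had 4.73, 5.79, 4.49 and 2.79 TPM with anti-CTLA-4, against 1.97, 2.25, 2.35, 1.83 and 2.27 TPM with the bacterium alone. Every anti-CTLA-4 library lay above every other library, replicate 4 closest to them. Its log2 fold change was 0.77 ± 0.15 (SE, adjusted p = 0.0128, limma). The gene Zfp961 on the opposite strand overlaps 25.1% of the Cyp4f18 span, and reads counted without strand cannot be told apart there. Over the 9 libraries Zfp961 had 2110 reads and Cyp4f18 932. The part of Zfp961 reads in the Cyp4f18 result was not tested, and none of the alternative fits separates them.

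Cyp4f16 (chr17:32536557-32551798, plus strand), of the same subfamily, had 6.12, 5.97, 5.96 and 4.95 TPM with anti-CTLA-4, against 4.36, 4.50, 3.76, 5.08 and 4.03 TPM with the bacterium alone. Replicate 4 of the antibody group lay inside the other group's range. The difference was 0.34 ± 0.09 on the log2 scale (SE, adjusted p = 0.0381, limma). It was not called in 7 of 9 fits that left out 1 library, all but those without replicate 4 of either group, with adjusted p up to 0.0980. Of 75-base windows of its transcript, 16.1% occur in other genes, mostly in Cyp4f37, so its reads are uncertain. The other tested CYP4 members are fatty acid hydroxylases or their close relatives and were not called. Cyp4f13 averaged 9.20 ± 1.12 TPM with the antibody and 8.84 ± 0.93 TPM without, and Cyp4b1 9.01 ± 0.97 TPM with the antibody and 8.51 ± 1.09 TPM without (SD, n = 4 and n = 5). Cyp4f17 averaged 7.28 ± 1.07 TPM with the antibody and 6.59 ± 0.67 TPM without. The summed Cyp4f subfamily, 9 members, lay at 24.0 to 31.5 TPM with the antibody and 21.1 to 25.6 TPM with the bacterium alone.

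In the same libraries, 7 of 8 T cell markers and 6 of 8 monocyte and macrophage markers were higher with the antibody. So were 3 of 5 tested neutrophil markers, while 7.16% of all genes tested were called higher. Over the 9 fits leaving out 1 library, the higher monocyte and macrophage markers numbered 5 to 8 and the higher neutrophil markers 1 to 4. Neutrophil markers fell to 1 call without antibody replicate 1, 2 or 3 or bacterium replicate 1, and to 2 without antibody replicate 4 or bacterium replicate 2 or 4. Cd6 of the T cell list reached 1 TPM only in antibody libraries and was not testable without any 1 of them. The filter thus fixed its direction, and its call is no evidence. The other 6 T cell calls held in all 9 fits. Their summed levels were 52.5 to 74.9 TPM for T cells, 561 to 858 TPM for monocytes and macrophages and 1509 to 4459 TPM for neutrophils with the antibody. With the bacterium alone they were 19.7 to 27.0 TPM for T cells, 328 to 488 TPM for monocytes and macrophages and 106 to 1478 TPM for neutrophils. None of the markers of these lists was at 0 in all libraries, and their part in the Cyp4f18 and Cyp7b1 results was not tested. In whole skin, fewer cells of a type and less RNA per cell cannot be told apart.

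Among genes of oxysterol and bile acid synthesis, 1 of 4 tested was higher, and none was lower. Cyp7b1 (chr3:18071950-18243338, minus strand), which hydroxylates oxysterols and so makes and removes ligands of immune cell receptors, had 7.64, 6.41, 8.67 and 10.5 TPM with anti-CTLA-4. It had 3.55, 4.32, 5.26, 4.67 and 6.49 TPM with the bacterium alone. Of the antibody libraries, 3 of 4 lay above all others, and replicate 2 lay just below replicate 5 of the other group. On the log2 scale the change was 0.67 ± 0.16 (SE, adjusted p = 0.0283, limma), resting on 1605 to 3259 reads with the antibody and 934 to 1576 reads without. The call was lost in 6 of 9 fits leaving out 1 library, those without antibody replicate 1, 3 or 4 or bacterium replicate 1, 2 or 4, with adjusted p up to 0.0710. The span of this gene is 79.1 times its exon length, so intronic reads enter its value. Per exon kilobase, with intronic reads still counted, it ranked 1 of all members, and 18 by TPM. Intronic reads can raise the per-exon rank, so it does not show Cyp7b1 to be the most abundant member.

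Cyp27a1, the mitochondrial sterol hydroxylase, averaged 8.02 ± 2.12 TPM with the antibody and 6.48 ± 0.75 TPM without (SD, n = 4 and n = 5), and was not called (adjusted p = 0.382, limma). Cyp39a1, which hydroxylates an oxysterol, averaged 2.82 ± 0.55 TPM with the antibody and 3.43 ± 0.66 TPM without. Cyp8b1, a bile acid hydroxylase in liver, averaged 2.97 ± 0.85 TPM with the antibody and 2.10 ± 0.73 TPM without, on 6 to 14 reads with the antibody and 3 to 9 without. Cyp46a1, the cholesterol hydroxylase of brain, lay below the filter at 0.640 ± 0.29 TPM with the antibody and 0.850 ± 0.21 TPM without.

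Apart from Cyp2r1, which is described with the vitamin D genes, CYP2 genes made up 50 members, of which 15 were tested. Of these, 1 was lower and none was higher. The log2 fold change was negative in 12 of 15, with a median of -0.23, beside -0.01 over all genes tested. Cyp2g1 (chr7:26808927-26821197, plus strand), a P450 known from olfactory mucosa, had 2.70, 9.82, 6.48 and 4.76 TPM with anti-CTLA-4, against 21.9, 22.4, 14.7, 18.1 and 10.4 TPM with the bacterium alone. Every antibody library lay below every other library, with replicate 2 of the antibody group and replicate 5 of the other group nearest each other. Its log2 fold change was -1.47 ± 0.31 (SE, adjusted p = 0.0173, limma), and it was called in all 9 fits leaving out 1 library.

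The most abundant CYP2 genes were not called. Cyp2b19, an arachidonic acid epoxygenase of mouse keratinocytes, had 47.5, 54.0, 53.8 and 48.3 TPM with the antibody, against 57.0, 60.1, 52.9, 74.0 and 60.9 TPM with the bacterium alone. The ranges overlapped at replicate 3 of the bacterium group, and the log2 fold change was -0.25 ± 0.09 (SE, adjusted p = 0.126, limma). Cyp2f2, known from airway club cells, averaged 16.6 ± 3.99 TPM with the antibody and 21.8 ± 4.17 TPM without. Cyp2j6, of a fatty acid epoxygenase subfamily, averaged 12.3 ± 1.47 TPM with the antibody and 14.6 ± 1.01 TPM without (SD, n = 4 and n = 5). The antisense gene Gm15883 overlaps 45.2% of the Cyp2f2 span. Cyp2s1, a P450 of epithelia, did not overlap between groups (4.24, 5.02, 4.60 and 4.74 TPM with the antibody, against 4.03, 4.17, 3.80, 4.11 and 3.92 TPM without), with an adjusted p of 0.105 in limma.

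**Figure D3:**
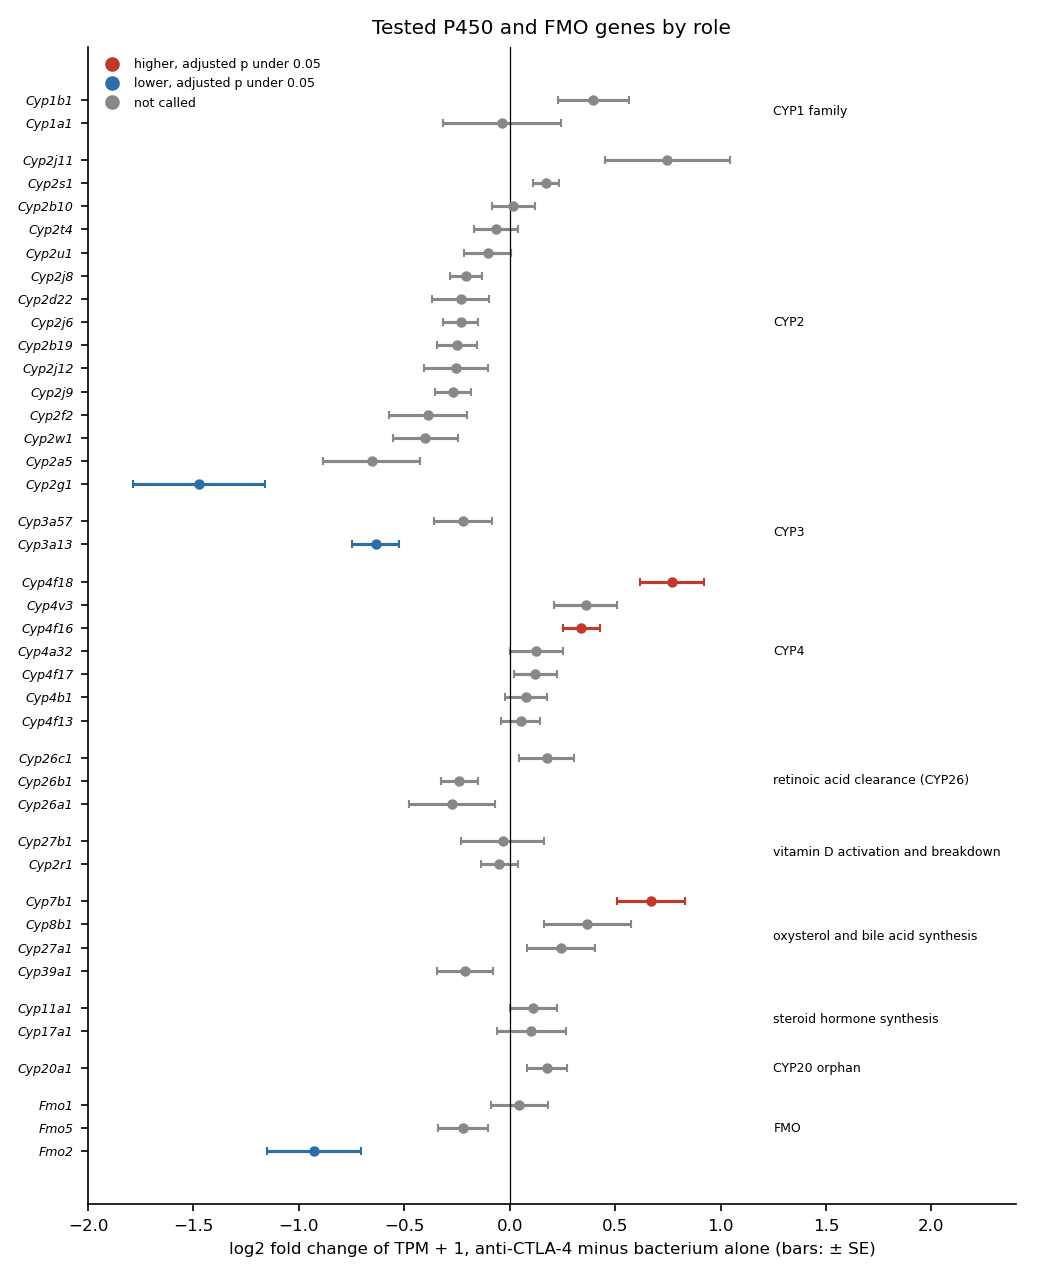
Log2 fold change of TPM + 1 (x axis, anti-CTLA-4 minus bacterium alone, bars ± SE) of the 41 tested members, in rows grouped by role. Red points are the 3 called higher, blue points the 3 called lower, and grey points the 35 not called; the 7 CYP4 points lie right of 0 and 12 of 15 CYP2 points left of it, with Cyp2r1 placed among the vitamin D genes.

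The 7 Cyp2j genes lie in a row on chromosome 4, and 5 were tested, 4 with a negative and 1 with a positive log2 fold change; none was called. Cyp2j11 had 90, 54, 113 and 313 recovered reads with anti-CTLA-4, against 10, 22, 61, 13 and 101 reads with the bacterium alone. The groups overlap, and replicate 4 of the antibody group had the most reads. In TPM its log2 fold change was 0.75 ± 0.30 (SE, adjusted p = 0.141, limma). Limma-voom on recovered reads, added after seeing the data, gave 2.11 ± 0.62 (adjusted p = 0.0317). Cyp2j8 had 1.26, 1.65, 1.56 and 1.34 TPM with the antibody, against 1.74, 1.93, 1.75, 1.92 and 1.82 TPM without, with no overlap. Its adjusted p was 0.113 in limma and 0.0380 in limma-voom, with log2 fold changes of -0.21 and -0.29. By limma-voom 19.2% of 16500 genes were called, and 8 of 45 members.

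**Figure D4:**
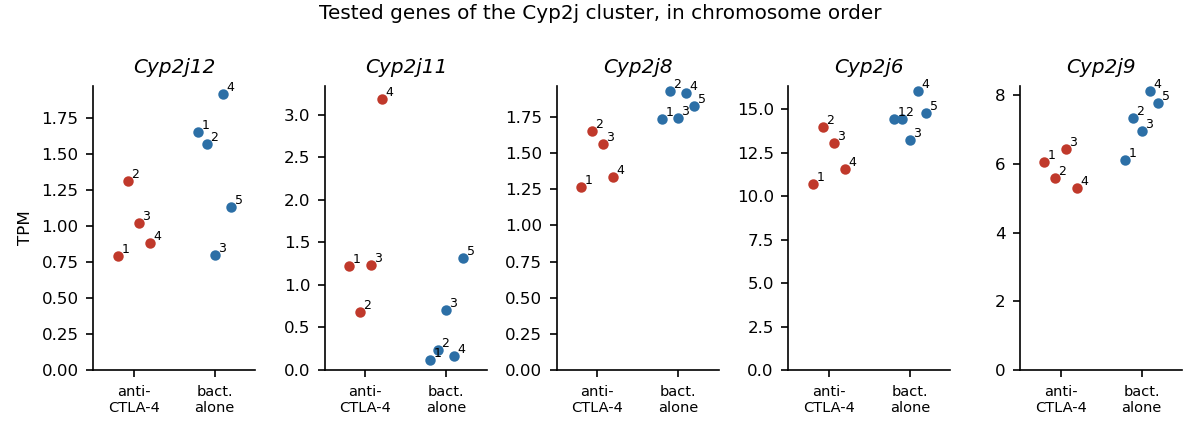
TPM (y axis, from 0, own scale per gene) of the 5 tested Cyp2j genes in chromosome order, anti-CTLA-4 libraries at left and bacterium alone at right; small numbers are replicate numbers. Cyp2j11 is highest in replicate 4 of the antibody group, and in Cyp2j8 the groups do not overlap.

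Of the CYP3 family, 9 members, 2 were tested and 1 was lower. Cyp3a13 (chr5:137892933-137921619, minus strand), a drug- and steroid-oxidising P450 of mouse, had 3.02, 3.75, 3.37 and 3.36 TPM with anti-CTLA-4, against 4.75, 6.38, 4.82, 6.79 and 6.50 TPM with the bacterium alone. The groups did not overlap. The log2 fold change was -0.64 ± 0.11 (SE, adjusted p = 0.00801, limma), the smallest adjusted p of the members, and it was called in all 9 fits leaving out 1 library. Cyp3a57 averaged 2.49 ± 0.26 TPM with the antibody and 3.13 ± 0.76 TPM without, and was not called.

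Of the 7 Fmo genes 3 were tested and 1 was lower. Fmo2 (chr1:162874318-162898758, minus strand), the main lung FMO in many mammals, had 6.11, 9.21, 9.37 and 5.21 TPM with anti-CTLA-4, against 13.4, 18.2, 10.4, 20.98 and 12.9 TPM with the bacterium alone. The groups did not overlap, and replicate 3 of the bacterium group lay nearest the antibody libraries. The log2 fold change was -0.93 ± 0.22 (SE, adjusted p = 0.0273, limma). It was not called without antibody replicate 1 or 4 or bacterium replicate 2 or 4, with adjusted p up to 0.0730. Fmo5 averaged 6.23 ± 0.90 TPM with the antibody and 7.44 ± 1.11 TPM without, and Fmo1 4.27 ± 0.54 TPM with the antibody and 4.15 ± 0.94 TPM without (SD, n = 4 and n = 5); neither was called.

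Beside the genes that were lower, 2 of 7 tested hair follicle markers (Krt73 and Msx2) and 1 of 12 sebaceous gland markers (Fa2h) were lower. Over all genes tested, 4.48% were called lower. Krt73 was called in all 9 fits leaving out 1 library. Msx2 lost its call without antibody replicate 1, 2 or 4 or bacterium replicate 1, 2 or 4 (adjusted p up to 0.102, limma). Fa2h lost its call without these 6 libraries or bacterium replicate 5 (adjusted p up to 0.112, limma). The hair follicle list summed to 24.7 to 33.1 TPM with the antibody and 34.0 to 57.2 TPM without. The sebaceous gland list summed to 356 to 432 TPM with the antibody and 427 to 511 TPM without. Of the 8 suprabasal markers Dsg1a, Sbsn and Calml3 were lower and Krt1 was higher, and only Dsg1a was called in all 9 fits leaving out 1 library. Sbsn lost its call without antibody replicate 1, 3 or 4 or bacterium replicate 2 or 4, Calml3 without these or bacterium replicate 1 or 3, and Krt1 without antibody replicate 2, 3 or 4 or bacterium replicate 2. Of the 8 skeletal muscle markers Actn3 was lower, with a median log2 fold change of -0.42 over the list and sums of 828 to 1220.4 TPM with the antibody and 979 to 1587 TPM without. Actn3 lost its call without antibody replicate 2, 3 or 4 or bacterium replicate 4. Of the 7 basal epidermal markers Col17a1 was lower, and the list summed to 7005 to 8311 TPM with the antibody and 6444 to 7863 TPM without. Col17a1 lost its call without the same 6 libraries as Msx2. Adipocyte markers summed to 67.3 to 97.9 TPM with the antibody and 80.3 to 113 TPM without, with 0 of 8 called. The fibroblast, endothelium and cartilage lists, with 7, 6 and 5 markers tested, had 0 called too. The part of these cell types in the Cyp2g1, Fmo2 and Cyp3a13 results was not tested.

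The CYP26 enzymes, which hydroxylate retinoic acid, gave 0 of 3 called. Cyp26b1 had 48.5, 42.8, 52.8 and 52.4 TPM with anti-CTLA-4, against 54.3, 61.0, 51.5, 65.6 and 58.3 TPM with the bacterium alone, and its ranges overlapped. The log2 fold change was -0.24 ± 0.09 (SE, adjusted p = 0.118, limma). Cyp26a1 averaged 4.88 ± 0.91 TPM with the antibody and 6.28 ± 2.16 TPM without, and Cyp26c1 1.10 ± 0.23 TPM with the antibody and 0.866 ± 0.26 TPM without. Of 16 tested genes of retinoid synthesis, transport and receptors, only the retinoic acid receptor Rarg was called, lower at 73.2 ± 6.79 TPM with the antibody and 94.6 ± 7.66 TPM without (adjusted p = 0.0203, limma). That call was lost without antibody replicate 1 or 4, with adjusted p up to 0.0552. Limma-voom, which called 19.2% of all its genes, also called Rxra lower (adjusted p = 0.0130). It called Rarb lower as well (adjusted p = 0.00985), a gene below the TPM filter.

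Of the CYP1 genes, which the aryl hydrocarbon receptor induces, 2 of 3 were tested and none was called. Cyp1b1 had 25.1, 19.1, 27.3 and 36.1 TPM with anti-CTLA-4, against 16.1, 18.1, 21.7, 20.2 and 23.1 TPM with the bacterium alone, with replicate 4 of the antibody group highest (adjusted p = 0.169, limma). Cyp1a1 averaged 7.65 ± 1.94 TPM with the antibody and 8.27 ± 3.70 TPM without. None of 9 tested genes of the receptor's pathway was called, of which Nqo1 averaged 4.21 ± 0.41 TPM with the antibody and 3.27 ± 0.47 TPM without (adjusted p = 0.0862, limma). Limma-voom called Nqo1 (adjusted p = 0.0388) and Ugt1a7c (0.0173) higher, and Arnt2, below the TPM filter, lower (0.0482).

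Of the genes of vitamin D activation and breakdown, 2 of 3 were tested and none was called. Cyp2r1, which hydroxylates vitamin D in liver and other tissues, averaged 2.92 ± 0.43 TPM with the antibody and 3.05 ± 0.22 TPM without. Cyp27b1, which makes active vitamin D, averaged 0.974 ± 0.44 TPM with the antibody and 1.02 ± 0.42 TPM without, on 3 to 12 reads with the antibody and 4 to 11 without. Of the steroid hormone genes, 2 of 6 were tested and none was called: Cyp17a1, the androgen-forming enzyme, averaged 8.20 ± 1.89 TPM with the antibody and 7.56 ± 1.57 TPM without, and Cyp11a1, which starts steroid synthesis, 4.67 ± 0.62 TPM with the antibody and 4.25 ± 0.68 TPM without. Cyp11b1, of adrenal steroid synthesis, lay below the filter at 0.258 ± 0.15 TPM with the antibody and 0.472 ± 0.23 TPM without. Cyp20a1, an orphan P450, averaged 4.42 ± 0.29 TPM with the antibody and 3.82 ± 0.58 TPM without (adjusted p = 0.281, limma).

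Among the members below the filter, Cyp2b23 averaged 0.881 ± 0.23 TPM with the antibody and 1.02 ± 0.19 TPM without, and Cyp2ab1 0.769 ± 0.29 TPM with the antibody and 0.819 ± 0.40 TPM without. Cyp4f37 averaged 0.704 ± 0.12 TPM with the antibody and 0.603 ± 0.08 TPM without, and the pseudogene Cyp4f41-ps 0.662 ± 0.25 TPM with the antibody and 0.401 ± 0.12 TPM without. Subfamilies best known from liver were low. Of the 43 members of Cyp2c, Cyp2d, Cyp3a and Cyp4a, 39 averaged under 0.5 TPM, and no Cyp2c gene passed 0.083 TPM in any library. Low values are uncertain where sequence is shared with other genes, as in 57.1% of the 75-base windows of Cyp2c40. In others, such as Cyp2c55, no window is shared. Long introns also lower TPM per base of span. The 6 hepatocyte markers summed to 0.073 to 0.861 TPM with the antibody and 0.413 to 1.13 TPM without.

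**Figure D5:**
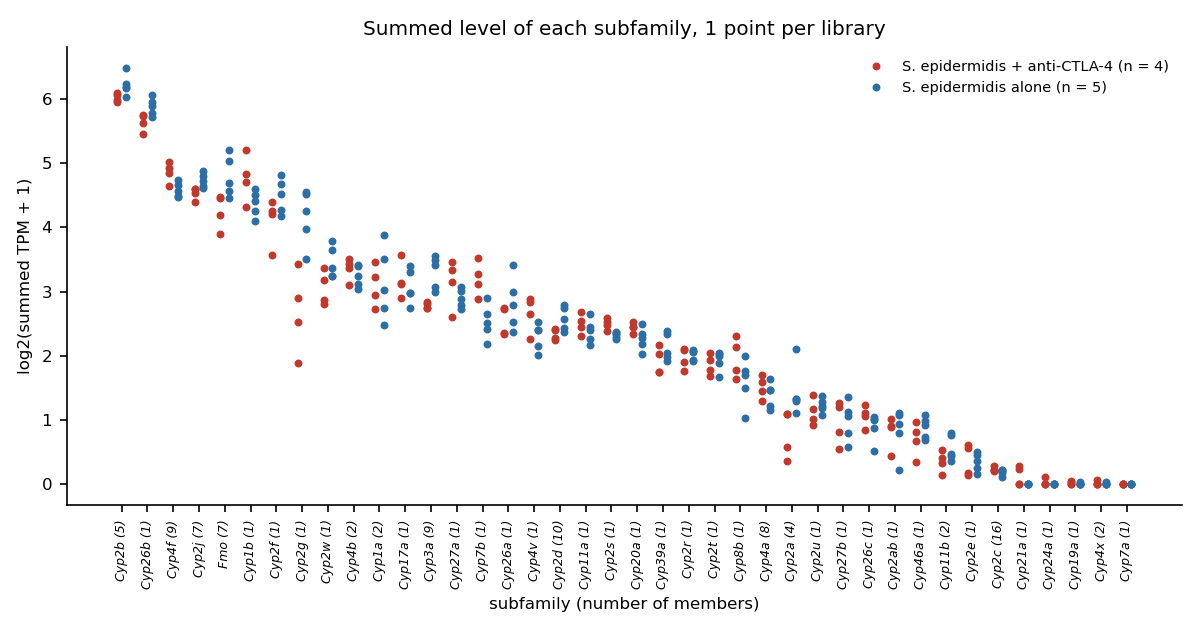
Summed TPM of each of the 40 subfamilies (y axis, log2 of the sum + 1), 1 point per library, anti-CTLA-4 in red at left and bacterium alone in blue at right of each position, ordered by mean level. Cyp2b and Cyp26b stand highest and Cyp2g shows its antibody libraries below the others.

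Subfamily sums were compared as a description, without a test. Cyp2b, 5 members, lay at 60.9 to 67.3 TPM with the antibody and 64.6 to 88.7 TPM with the bacterium alone, and Cyp26b at 42.8 to 52.8 TPM with the antibody and 51.5 to 65.6 TPM without. Cyp2j, 7 members, lay at 20.1 to 23.3 TPM with the antibody and 23.5 to 28.3 TPM without, a narrow gap. Non-overlap was not particular to Cyp2j: the sums of Cyp2a, Cyp2g and Cyp3a (lower) and Cyp2s (higher) did not overlap either. Cyp3a, 9 members, lay at 5.69 to 6.15 TPM with the antibody and 6.93 to 10.7 TPM without, and Fmo at 13.9 to 21.1 TPM with the antibody and 21.1 to 36.1 TPM without. By TPM, Cyp2b19 held 81.1% of Cyp2b, Cyp2j6 56.3% of Cyp2j, Cyp3a13 62.4% of Cyp3a and Fmo2 50.5% of Fmo. Per exon kilobase, with intronic reads still counted, Cyp2b19 held 62.4% of Cyp2b, Cyp2j6 40.9% of Cyp2j and Fmo2 45.7% of Fmo. On that scale the order within Cyp3a turned round, with Cyp3a57 at 58.6% and Cyp3a13 at 41.2%.

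Genes that the name rule does not reach were examined from lists of related function, which may hold P450s under other names. Of 13 genes of electron transfer and haem supply, only Hmox1, which breaks down haem, was called, at 67.3 ± 12.0 TPM with the antibody and 34.0 ± 5.83 TPM without (log2 fold change 0.96 ± 0.15 SE, adjusted p = 0.00569, limma). Of 11 genes of epoxide and eicosanoid metabolism, 2 were higher and 4 lower. Over all genes tested, 7.16% were called higher and 4.48% lower, and the same shares stand beside the other lists here. Tbxas1, thromboxane synthase, averaged 2.33 ± 0.36 TPM with the antibody and 1.31 ± 0.09 TPM without, and the inducible cyclooxygenase Ptgs2 5.31 ± 1.28 TPM with the antibody and 2.13 ± 0.91 TPM without (adjusted p = 0.00678 and 0.0177, limma). Lower were the cyclooxygenase Ptgs1, at 37.3 ± 1.45 TPM with the antibody and 49.9 ± 5.27 TPM without, and the epidermal lipoxygenase Aloxe3, at 19.6 ± 1.36 TPM with the antibody and 31.4 ± 3.50 TPM without (adjusted p = 0.0116 and 0.00295, limma). Ptgis and Alox12b, named after their values were seen, were lower too, and each lost its call in some fits leaving out 1 library, with adjusted p up to 0.0859 and 0.0641. Ptgis lost it without any of the 4 antibody libraries or bacterium replicate 1 or 2, and Alox12b without antibody replicate 1 or 2. Of 8 tested nuclear receptors that induce P450 genes, Pparg was lower, at 5.15 ± 0.38 TPM with the antibody and 7.33 ± 1.26 TPM without (adjusted p = 0.0340, limma), and lost its call without any of the 4 antibody libraries or bacterium replicate 2 or 5 (up to 0.0888). Of 20 tested glutathione transferases, Gsta4 was higher, at 5.01 ± 0.76 TPM with the antibody and 2.79 ± 0.82 TPM without (adjusted p = 0.0243, limma), and lost its call without antibody replicate 3 or 4 or bacterium replicate 1, 2 or 4 (up to 0.0665). None of 10 tested glucuronosyl- and sulfotransferases was called by limma on TPM. The Ugt1a genes among them overlap in span, so they count many of the same reads and are not separate results. Limma-voom called Ugt1a7c, Ugt1a9 and Ugt1a10 of this overlapping set higher (adjusted p = 0.0173, 0.0174 and 0.0174).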

How the data were processed

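Total RNA of whole ear skin from 9 samples was sequenced (Tecan Universal Plus kit, Illumina NextSeq 550), per the labels' protocols. The deposited table gives TPM per gene; the submitters' processing notes name STAR, HOMER, DESeq2 and mm10, with versions, roles and annotation not given in the sources used here. The listed length is the gene's span for 99.2% of genes. With 1 step per library, 100% of 15368 to 16241 genes per library came within 0.1 reads of whole numbers, so whole reads were recovered. In 37 of 37 same-strand and 104 of 104 opposite-strand gene pairs with 1 gene inside the other's intron, the outer gene had at least the inner gene's reads in all 9 libraries (inner genes of at least 500 reads), so reads are counted over whole spans on both strands.

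A gene was tested if 4 or more libraries reached 1 TPM. Log2(TPM + 1) values went into limma 3.58.1 (R 4.3.3), with a variance trend and no covariate. The pseudocount makes fold changes of low genes too small. Alternatives were other pseudocounts, filters, scalings, variance models and weights, the replicate number as a block, leaving out each library, and limma-voom or TPM fits on genes with at least 10 reads, the last pair added after seeing the data. The scripts were tested on simulated data. Members, lists and tests were chosen with earlier results of these data known. Named are all called members, up to 4 tested members of highest mean TPM per role group, the 6 highest below the filter and up to 4 genes of smallest p per partner list; other tested members named were chosen after their values were seen. Exons are from GENCODE M21 and promoters from RefSeq GRCm38.p6.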

Additional observations from a re-analysis of the deposited data

Results flagged for a closer look

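Within groups, 68 sets of libraries from 34 named members were examined for a library far from the rest, and chance alone marks about 1 in 20. Cyp4f16 was lowest in anti-CTLA-4 replicate 4, at 4.95 TPM, with the other antibody libraries at 5.96 to 6.12 TPM. Cyp4f37, which shares sequence with Cyp4f16, was highest in the same library, at 0.890 TPM, with the others at 0.639 to 0.645 TPM.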

How the results depend on the processing

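Cyp2g1 was called lower in all 24 alternatives, and Cyp3a13 lower and Cyp4f18 higher in all 23 that tested them. A filter of at least 5 TPM left 20 members, of which 1 was higher and 2 lower. Quantile normalization and a common median each gave 5 lower members. Leaving out 1 library gave 1 to 3 higher and 2 to 4 lower members. With the replicate number as a block, 2 members were higher and 2 lower, and 593 genes were higher and 88 lower in all, against 1124 and 704; Fmo2 (adjusted p = 0.105, limma) and Cyp4f16 (0.185) were not called. Same-numbered libraries did not deviate together (correlations of -0.093 to 0.018), so the numbers were not taken as pairs. Cyp4f16 also lost its call with no filter and with the 5 TPM filter. Limma-voom called 2002 genes higher and 1163 lower. Quantile normalization called 1314 higher and 1429 lower, and leaving out bacterium replicate 2 gave 838 and 352. Uncalled members near 0 changed sign, and the cause was not tested: over the fits without 1 library, the log2 fold change ranged from -0.021 to 0.094 for Cyp4f13, -0.028 to 0.196 for Cyp17a1, -0.094 to 0.016 for Cyp2r1, -0.198 to 0.151 for Cyp1a1, -0.020 to 0.133 for Fmo1 and -0.137 to 0.10 for Cyp27b1. It was 0.025 for Cyp1a1 by limma-voom, -0.020 for Fmo1 with the replicate block and 0.037 for Cyp27b1 with array weights. Values of genes with few reads, such as Cyp8b1 and Cyp27b1, are limited by depth.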
